A study of Mus musculus with 6 samples.

Results

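Transcripts of 10 interferon-induced antiviral effector genes, Rsad2, Cmpk2, Isg15, Usp18, Isg20, Mx1, Mx2, Zbp1, Bst2 and Ifi44, were followed in mouse bone marrow-derived macrophages exposed to medium from 2 kinds of alveolar macrophage. The genes were taken by name from a table of 21959 genes, where each name matched 1 gene, and all 10 passed the count filter that left 10177 genes for testing. The macrophages were primary wild-type cells grown from bone marrow in complete RPMI1640. For 24 h they received a 1:1 mixture of fresh medium and medium in which alveolar macrophages, which live in the air sacs of the lung, had been kept for 48 h. The alveolar macrophages came from mice aged 8 to 12 weeks and either lacked or carried HTR2C, the serotonin receptor 2C. The 3 libraries with HTR2C-negative medium are called N1, N2 and N3, and the 3 with HTR2C-positive medium P1, P2 and P3. The labels give no mouse strain and do not say what the numbers mark, so a p-value reflects only how far these 6 samples scatter, and that scatter may be technical. Cells without conditioned medium were not analysed here, so the values say how the 2 media differ and not what either does by itself.

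These genes belong to the response to type I interferon. Interferon binds the receptor made of IFNAR1 and IFNAR2, the kinases JAK1 and TYK2 are activated, and a complex called ISGF3, which holds STAT2 and IRF9, enters the nucleus and binds interferon-stimulated response elements in front of target genes. Macrophages are among the cells that respond strongly, and the products act at separate steps of viral infection, from nucleotide supply to the release of new particles. Transcript counts do not report protein or antiviral activity.

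Total counts ranged from 12843971 to 16031723 per library, and the 10 genes held 1.44% to 1.68% of them. Macrophage markers were all present, with 0 of 7 at 0 and a summed level of 19983 to 22234 CPM with HTR2C-negative and 19339 to 22607 CPM with HTR2C-positive medium. CPM values are counts scaled to a fixed library total and by TMM factors, which set libraries to a common level on most genes. Overlap of groups is judged on these values unless another scaling is named. Lyz2 held 16040 to 18643 CPM of that sum and Mertk 24.0 to 30.3 CPM. Csf1r (106 ± 21.5 and 164 ± 31.1 CPM) and Fcgr1 (629 ± 47.1 and 692 ± 8.10 CPM) were higher with HTR2C-positive medium without overlap. The other macrophage markers overlapped, and 10.9% of all tested genes were higher without overlap. With total counts alone the groups of Csf1r and Fcgr1 overlapped as well. DESeq2 gave Csf1r an adjusted p of 0.041 and edgeR 0.141. Bst2 also marks plasmacytoid dendritic cells, whose 7 other listed markers summed to 135 to 181 CPM with HTR2C-negative and 130 to 177 CPM with HTR2C-positive medium. Of these, Tcf4 held 122 to 175 CPM, Ccr9 2.85 to 4.17 CPM and the defining receptor gene Siglech 0 to 1.19 CPM, 0 of 7 were at 0 in all libraries, and their part in the Bst2 level was not tested. The libraries N2 and P1 stood apart, with the lowest share of counts from the actin gene Actb (8.14% and 7.03%, against 10.3% to 13.5% in the other 4). Fold changes followed GC content, the share of G and C bases in a transcript, across all tested genes (Spearman correlation 0.55, a description over genes that share libraries), so values fitted with each library's trend in GC content and length taken out, here called GC-corrected, are given for each gene whose log2 fold change is printed.

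Across the 10 genes no difference between the media passed the test. By edgeR's quasi-likelihood test with Benjamini-Hochberg adjustment over all tested genes, 0 of 10 passed the threshold of 0.05, Ifi44 came nearest with an adjusted p of 0.319, and 0 of 10 were under 0.05 without adjustment. Among all genes, 0 of 10177 genes passed the adjusted threshold (0%) and 1690 (16.6%) had an unadjusted p under 0.05. DESeq2 called 394 of 6823 genes with an adjusted p (5.77%) and limma-voom 0 of 10177, and neither called any of the 10. Log2 fold changes, HTR2C-positive minus HTR2C-negative medium, ran from -0.32 for Ifi44 to 0.19 for Cmpk2, with 6 above and 4 below 0, where 52.1% of all tested genes were above 0. The median was 0.086, beside 0.020 for all tested genes. The lowest 95% confidence bound among the 10 was -0.66 for Ifi44 and the highest 0.59 for Cmpk2, on the log2 scale, so every interval ended short of a 2-fold difference in either direction.

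**Figure D1:**
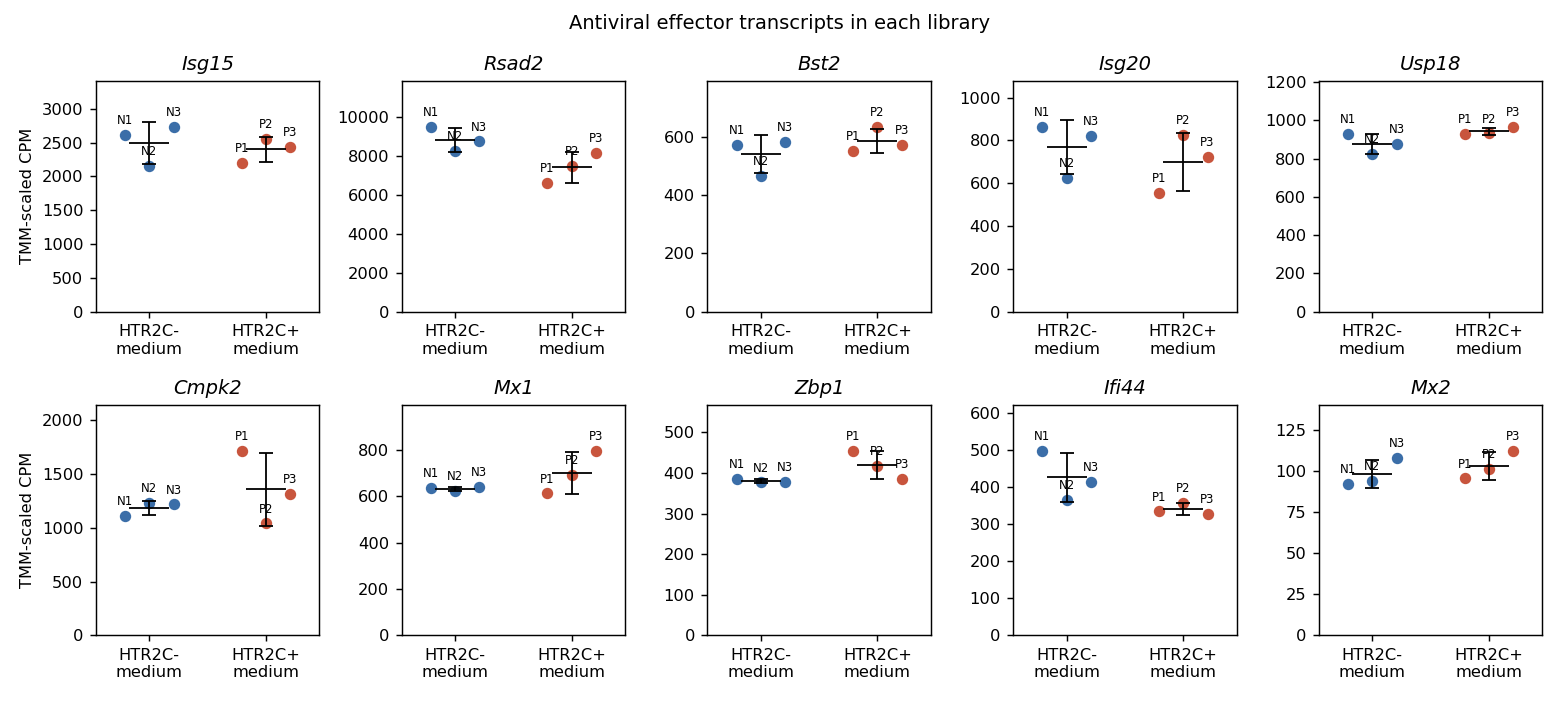
TMM-scaled CPM (vertical axis, from 0) of each gene in the 6 libraries. Blue points are the HTR2C-negative and red points the HTR2C-positive medium libraries, and black bars give the mean ± SD of 3 libraries. The groups do not overlap for Rsad2, Ifi44 and Zbp1, and Cmpk2 has 1 high library, P1 at 1716 CPM.

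The genes differed far more in level than they did between the media. Compared per length, in the deposited FPKM values (counts scaled by gene length and by the total count), Isg15 led with 3234 to 3682 FPKM over the 6 libraries, 13th of the 10177 tested genes by its mean. Rsad2 followed with 1656 to 2016 FPKM, at rank 26, and Bst2 with 548 to 690 (689.8) FPKM, at rank 76. The ranges of these 3 did not touch one another. Isg20 (337 to 426 FPKM), Usp18 (292 to 375 FPKM) and Cmpk2 (235 to 464 FPKM) overlapped, as did Cmpk2 and Mx1 (166 to 251 FPKM), so the order of neighbours within this group is not set. Zbp1 (96.1 to 145 FPKM), Ifi44 (56.1 to 71.5 FPKM) and Mx2 (22.5 to 33.1 FPKM) were each apart from the next, and Mx2 was the lowest of the 10 at rank 1302.

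Interferon-stimulated response elements are built on repeats of GAAA, and the stretches below are shown because they are the places where the windows of these genes match that repeat. The core, GAAA followed by any pair of bases and GAAA again, was searched on both strands in windows from 250 bases before to 50 bases after each RefSeq start site (build GRCm38.p6, a different build from the counts). It was present in 1131 of 32851 windows of all genes (3.44%) and in 18 of 41 windows of the other listed interferon-induced genes (43.9%). Windows were found for 6 of the 10 genes, and 3 of their 8 windows held the core (37.5%). Those of Rsad2, Isg15 and Bst2 held the core, and those of Cmpk2, Ifi44 and Isg20 did not hold these letters. Usp18, Mx1, Mx2 and Zbp1 had no window in the table. Capitals mark the core or overlapping cores, read 5′ to 3′ on the gene's strand, which is minus for all 3.
Rsad2: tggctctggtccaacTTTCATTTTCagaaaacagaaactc
Isg15: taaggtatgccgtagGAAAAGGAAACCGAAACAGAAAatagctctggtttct
Bst2: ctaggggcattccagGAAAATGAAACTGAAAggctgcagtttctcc
The Rsad2 stretch lies at chr12:26456548-26456587, with the core in reverse orientation 111 to 120 bases before the start. The Isg15 stretch lies at chr4:156200860-156200911, with 3 overlapping cores that fill 22 bases between 57 and 78 bases before the start. The Bst2 stretch lies at chr8:71537572-71537617, with 2 overlapping cores between 115 and 130 bases before the start. A match is a description of letters and does not show binding. These 3 genes were the most abundant of the 10 per length, but for the 4 genes with no window it is not known whether they hold the core. The log2 fold changes of the 3, -0.25, -0.058 and 0.11, lay on either side of 0.

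The pair that acts on nucleotides was examined next. Rsad2 (ENSMUSG00000020641, chromosome 12, 26492745 to 26506451, minus strand, GRCm39) encodes viperin, a radical SAM enzyme that turns CTP into a nucleotide that ends viral RNA chains. It was at 9467, 8259 and 8739.6 CPM across N1 to N3, and at 6591, 7474 and 8156 CPM across P1 to P3. Every HTR2C-positive medium library was below every HTR2C-negative one, as for 11.5% of all tested genes, though P3 lay only just under N2. The means were 8822 ± 608 and 7407 ± 784 CPM (SD, n = 3 each), a log2 fold change of -0.25 (SE 0.16, 95% interval -0.60 to 0.096, edgeR adjusted p = 0.451). It was -0.16 without library P1 and -0.11 with total counts alone. The GC-corrected value was -0.045, and the GC content of Rsad2 was 44.3%, under the median of 48.9% for tested genes.

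Cmpk2 (ENSMUSG00000020638, chromosome 12, 26519203 to 26529836, plus strand) encodes a mitochondrial kinase of pyrimidine nucleoside monophosphates. It was at 1113, 1231 and 1219 CPM across N1 to N3, and at 1716, 1041 and 1319.6 CPM across P1 to P3. P1 was the highest and P2 the lowest of all 6, so the HTR2C-positive medium libraries spread over the whole range of the others. The means were 1187 ± 64.6 and 1359 ± 339 CPM, with a log2 fold change of 0.19 (SE 0.18, edgeR adjusted p = 0.626) that was 0.010 without library P1 and 0.35 without P2. The GC-corrected value was 0.34.

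Rsad2 and Cmpk2 are neighbours that point away from each other, with start sites 12752 bases apart and no other gene of the table between them. The ratio of their FPKM values, Rsad2 over Cmpk2, was 8.17, 6.44 and 6.89 across N1 to N3, and 3.69, 6.89 and 5.94 across P1 to P3. P1 stood below the other 5 libraries, and it also held the lowest Rsad2 and the highest Cmpk2 level in CPM. The other nearby pair, Mx1 and Mx2, start 72401 bases apart, with 1 other gene of the table between them. The ratio Mx1 over Mx2 stayed between 6.34 and 7.60 (7.6049 in P3) in all 6 libraries.

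**Figure D2:**
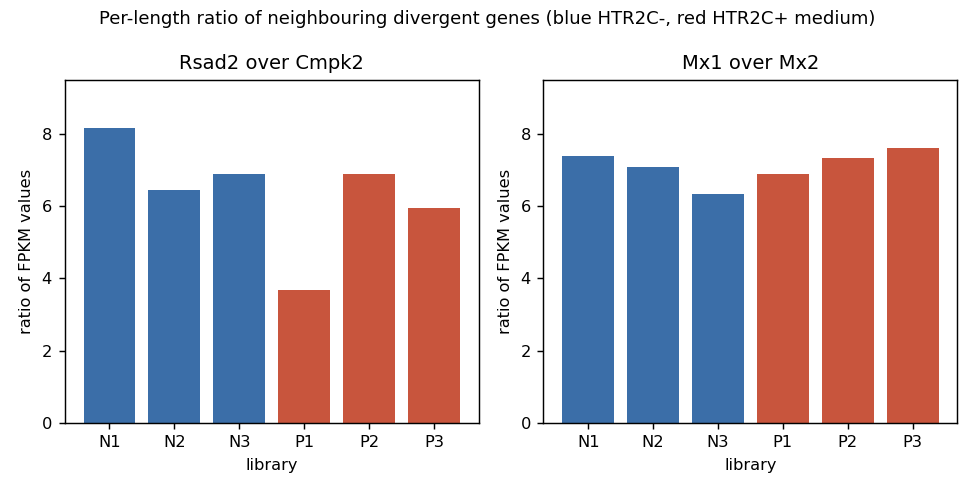
Ratio of deposited FPKM values (vertical axis, from 0) in each library for Rsad2 over Cmpk2 (left) and Mx1 over Mx2 (right). Blue bars are HTR2C-negative and red bars HTR2C-positive medium libraries. P1 is lowest at 3.69 on the left, and the right-hand bars all lie between 6.34 and 7.60.

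The ISG15 system had mostly overlapping groups. Isg15 (ENSMUSG00000035692, chromosome 4, 156283912 to 156285253, minus strand), a ubiquitin-like protein joined to other proteins during infection, was at 2615, 2149 and 2727 CPM across N1 to N3, and at 2203, 2559 and 2433 CPM across P1 to P3. N2 and P1 were the low libraries and the groups overlapped. The log2 fold change was -0.058 (SE 0.16, 95% interval -0.40 to 0.29, edgeR adjusted p = 0.885), 0.083 with libraries scaled to total counts alone and -0.26 when GC-corrected. Usp18 (ENSMUSG00000030107, chromosome 6, 121222865 to 121247876, plus strand), the protease that takes ISG15 off its targets and damps signalling at the interferon receptor, was at 826 to 929.9 CPM with HTR2C-negative and 929.7 to 965 CPM with HTR2C-positive medium. Only N1 reached the HTR2C-positive medium range, at its lower end. Its log2 fold change was 0.10 (SE 0.14, edgeR adjusted p = 0.757), and Usp18 spanned 1.17-fold from its lowest to its highest library, the least of the 10. The GC-corrected value was 0.11.

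The enzymes that attach ISG15 were given by a list of 4 genes, of which 0 had an unadjusted p under 0.05 by edgeR (16.6% of all tested genes had) and 0 were called by DESeq2 (5.77% of all). Uba7, the activating enzyme, was at 60.1 ± 9.52 and 79.9 ± 27.2 CPM with HTR2C-negative and HTR2C-positive medium, and its log2 fold change of 0.41 was 0.13 without library P1 and 0.096 when GC-corrected. Herc6, the ligase thought to take this role in mice, was at 159.7 ± 3.81 and 139 ± 4.01 CPM without overlap, a log2 fold change of -0.20 (SE 0.14, edgeR adjusted p = 0.478) that became 0.12 when GC-corrected. Of all tested genes, 11.5% were lower without overlap, and with total counts alone the groups of Herc6 overlapped. The conjugating enzyme gene Ube2l6 was at 592 ± 37.4 and 599.5 ± 111 CPM, and the ligase gene Trim25 at 229 ± 8.28 and 239 ± 23.7 CPM, with overlapping groups.

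The Mx genes encode dynamin-like GTPases that block incoming viruses, Mx1 in the nucleus and Mx2 in the cytoplasm. Many inbred laboratory mouse strains carry Mx alleles that make no working protein, which transcript counts do not show. Mx1 (ENSMUSG00000000386, chromosome 16, 97248235 to 97264107, minus strand) was at 636, 623 and 639 CPM across N1 to N3, and at 613, 692 and 796 CPM across P1 to P3. The HTR2C-negative medium libraries lay within a narrow band that P1 fell below and the other two exceeded. The log2 fold change was 0.15 (SE 0.15, 95% interval -0.18 to 0.48, edgeR adjusted p = 0.661), 0.27 when GC-corrected, 0.052 without library P3 and 0.25 without P1. Mx2 (ENSMUSG00000023341, chromosome 16, 97336508 to 97362100, plus strand) was at 92.1 to 108 CPM with HTR2C-negative and 95.4 to 112 CPM with HTR2C-positive medium, the groups overlapped, and the log2 fold change was 0.069 (SE 0.15). It was 0.013 when GC-corrected, 0.0098 without library P3 and 0.16 without N3. The genes are related in sequence, and how reads matching both were counted is not known, so the split of counts between them is uncertain.

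Bst2 and Isg20 act on virus release and on viral RNA. Bst2 (ENSMUSG00000046718, chromosome 8, 71986899 to 71990100, minus strand) encodes tetherin, which holds new virus particles at the cell surface. It was at 572, 467 and 584 CPM across N1 to N3, and at 553, 633 and 571 CPM across P1 to P3. The groups overlapped, with N2 the lowest of the 6, and the log2 fold change was 0.11 (SE 0.15, 95% interval -0.22 to 0.45, edgeR adjusted p = 0.746), 0.26 with total counts alone and -0.17 when GC-corrected. Leaving out 1 library gave 0.024 (without N2) to 0.19 (without N3). Isg20 (ENSMUSG00000039236, chromosome 7, 78563172 to 78570144, plus strand), an exonuclease of single-stranded RNA, was at 862, 626 and 821 CPM across N1 to N3, and at 556, 825 and 723 CPM across P1 to P3. N2 and P1 were again the lowest of their groups. Its log2 fold change of -0.13 (SE 0.18, edgeR adjusted p = 0.755) became 0.027 without library P1 and -0.45 when GC-corrected, and over 16 alternatives its adjusted p ranged from 0.477 to 0.994. Isg15, Bst2, Isg20, Mx1, Rsad2 and Usp18 were each lowest in N2 and P1 within their groups. The GC contents of Isg15, Bst2 and Isg20, at 52.8%, 55.3% and 57.4%, were the highest of the 10. Those of Mx1, at 47.3%, and Rsad2, at 44.3%, were under the median of tested genes, and that of Usp18 was 50.9%.

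Zbp1 and Ifi44 had separated groups in opposite directions, where 10.9% of all tested genes were higher and 11.5% lower without overlap. Zbp1 (ENSMUSG00000027514, chromosome 2, 173048405 to 173060716, minus strand) encodes a sensor of Z-form nucleic acids that can start cell death. It was at 385, 377 and 378 CPM across N1 to N3, and at 455, 418 and 386 CPM across P1 to P3. All HTR2C-positive medium libraries were higher, but P3 at 386.4 CPM was next to N1 at 385.2 CPM. The means were 379.9 ± 4.61 and 419.7 ± 34.1 CPM, and the log2 fold change was 0.14 (SE 0.14, 95% interval -0.16 to 0.45, edgeR adjusted p = 0.643), or 0.091 when GC-corrected.

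Ifi44 (ENSMUSG00000028037, chromosome 3, 151436559 to 151455597, minus strand) encodes an interferon-induced protein reported to restrain cell growth and interferon responses. It was at 497, 366 and 414 CPM across N1 to N3, and at 334, 358 and 328 CPM across P1 to P3. The HTR2C-positive medium libraries were all lower, N1 was the highest of the 6, and N2 lay just above P2. The means were 426 ± 66.6 and 340.2 ± 15.6 CPM, with a log2 fold change of -0.32 (SE 0.16, 95% interval -0.66 to 0.014, edgeR adjusted p = 0.319). It was -0.20 without library N1, -0.39 (edgeR adjusted p = 0.046) without N2 and P1 together, and -0.0075 when GC-corrected. Over the other 15 alternatives its adjusted p ranged from 0.18 without library N2 to 0.991 when GC-corrected with the replicate block. The GC content of Ifi44 was 40.4% (40.35%), the lowest of the 10, and its related gene Ifi44l had 0 counts in all 6 libraries.

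**Figure D3:**
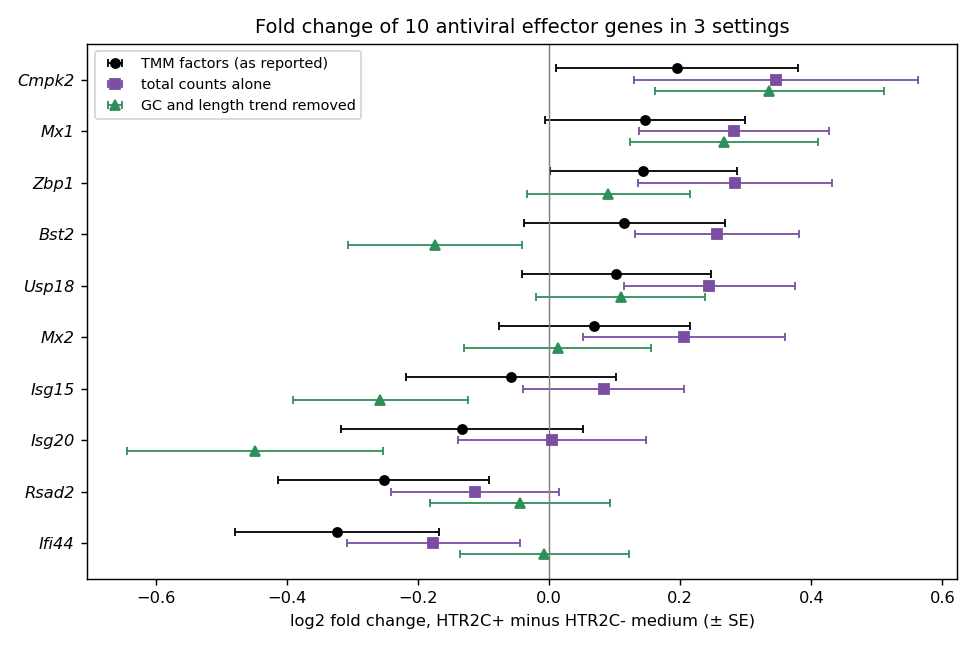
Log2 fold change, HTR2C-positive minus HTR2C-negative medium, with its SE (horizontal axis), for each of the 10 genes with TMM factors (black circles), total counts alone (purple squares) and the GC-corrected fit with the GC and length trend taken out (green triangles). Ifi44 moves from -0.32 to -0.0075 and Isg20 from -0.13 to -0.45 in the GC-corrected fit, and total counts alone place every gene further right.

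Whether groups overlapped depended on the scaling. With TMM factors 1 of the 10 genes was higher without overlap (Zbp1) and 2 were lower (Rsad2 and Ifi44), where 10.9% of all tested genes were higher and 11.5% lower without overlap. With total counts alone 4 were higher (Zbp1, Bst2, Usp18 and Mx1) and 1 lower (Ifi44), where the shares of all tested genes were 14.6% and 6.73%. The median log2 fold change of all tested genes was 0.16 with total counts alone and 0.020 with TMM factors, and that of the 10 genes was then 0.23. Zbp1 and Ifi44 were the genes without overlap under both scalings, and Rsad2 kept its negative value but overlapped with total counts alone.

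The 10 genes did not share 1 profile over the libraries. The library means of their centred log2 CPM, that is the deviation from each gene's mean over 6 libraries, were 0.062, -0.11 and 0.052 across N1 to N3, and -0.054, 0.014 and 0.036 across P1 to P3. Between 1 (N2) and 7 (P2) of the 10 genes were above their own mean in a library. Mx1 and Mx2 had the most similar profiles, with a root mean square difference of 0.086 log2 units over the 6 libraries, followed by Isg15 and Bst2 with 0.092. Cmpk2 and Isg20 were the least similar with 0.44, and in P1 they deviated by 0.45 and -0.38. Over all 10, Usp18 varied least (0.074 log2 units, root mean square) and Isg20 and Cmpk2 most (0.23 each).

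**Figure D4:**
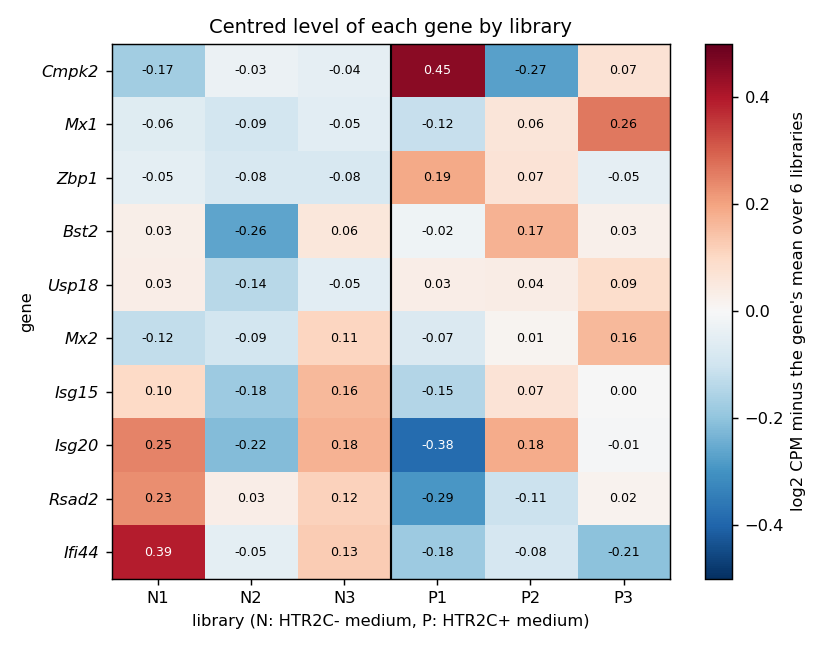
Log2 CPM of each gene minus its mean over the 6 libraries (colour and printed value), with libraries in columns and genes in rows ordered by log2 fold change. P1 holds both the highest value, 0.45 for Cmpk2, and the lowest, -0.38 for Isg20.

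Among 8323 other tested genes with at least 2 CPM on average, the closest to the mean profile of the 10 were Eef1e1 (root mean square difference 0.017), Gabarapl2 (0.020), U2af1 (0.035), Tep1 (0.040) and Dynlt1f (0.041). The profile itself had a root mean square of 0.062, so it was close to flat, and these genes were nearly flat as well. The nearest to Rsad2 were Arhgdib (0.017), Dcbld2 (0.026) and Cd84 (0.034), those nearest to Ifi44 were Evi2a (0.029), Trim13 (0.030) and Frg1 (0.031), and those nearest to Zbp1 were Dis3l2 (0.027), Serf2 (0.036) and Yae1d1 (0.038). This likeness is a description over 6 libraries.

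Upstream of these genes, the type I interferon transcripts were close to absent at the time of harvest. Of 16 interferon genes 12 had 0 counts in all 6 libraries, and Ifnb1 had 7 counts in total, Ifnk 7, Ifna4 3 and Ifne 1. A count of 0 allows up to 3 counts, or 0.171 to 0.265 CPM depending on the library, for counting error only. Of 13 genes of the receptor and ISGF3 pathway, in which the interferon-gamma receptor genes were included, 10 had a log2 fold change above and 3 below 0 with a median of 0.26. By edgeR 0 passed the adjusted threshold, and without adjustment 4 had a p under 0.05 and were higher (30.8%) and 1 was lower (7.69%), where 7.9% and 8.71% of all tested genes were. DESeq2 called 2 of the 13 higher, Tyk2 and Socs1, where it called 394 of 6823 genes (5.77%, 133 higher and 261 lower). Limma-voom called 0. With TMM factors 6 were higher without overlap (46.2%, Ifnar2, Tyk2, Stat2, Irf1, Irf3 and Socs1) and 1 was lower (7.69%, Irf9). Of all tested genes, 10.9% were higher and 11.5% lower without overlap. With total counts alone the groups of Ifnar2, Tyk2 and Irf9 overlapped. The receptor genes Ifnar1 (224 ± 23.4 and 231 ± 69.8 CPM) and Ifnar2 (142 ± 13.3 and 163 ± 9.46 CPM) and the kinase gene Jak1 (175 ± 6.84 and 186 ± 23.9 CPM) had means that differed little, and of these only Ifnar2 was without overlap. The kinase gene Tyk2 was at 12.3 ± 3.10 and 21.1 ± 4.43 CPM, and the log2 fold change was 0.77 (SE 0.23, edgeR adjusted p = 0.142), or 0.36 when GC-corrected.

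The ISGF3 genes Stat2 and Irf9 lay on opposite sides of 0. Stat2 was at 142 ± 11.0 and 175 ± 11.4 CPM without overlap, with a log2 fold change of 0.30 (0.15 when GC-corrected). Irf9 was at 149.9 ± 12.8 and 113 ± 15.2 CPM without overlap, a log2 fold change of -0.41 (SE 0.15, edgeR adjusted p = 0.212) and -0.48 when GC-corrected. Irf7, which amplifies interferon production, was at 487 ± 124 and 694 ± 319.95 CPM, and its log2 fold change of 0.51 was 0.084 without library P1 and 0.18 when GC-corrected. Irf1 and Irf3, further transcription factors of the response, had log2 fold changes of 0.39 and 0.56, and 0.21 and 0.19 when GC-corrected. Socs1, which inhibits the receptor kinases, had one of 1.28 (SE 0.38, edgeR adjusted p = 0.139), 0.57 without P1 and 0.83 when GC-corrected.

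Of 40 other interferon-induced genes tested, 19 were above and 21 below 0 (median log2 fold change -0.028), with 0 past edgeR's adjusted threshold. Without adjustment 5 had a p under 0.05 and were higher (12.5%) and 4 were lower (10%), where 7.9% and 8.71% of all tested genes were. DESeq2, which called 5.77% of all genes, called 1 higher (Ly6e) and 2 lower (Ifit2 and Ifit3), and limma-voom 0. Those with the smallest p were Ly6e, a surface protein gene, at 123 ± 7.05 and 189 ± 2.73 CPM (log2 fold change 0.63, SE 0.14, edgeR adjusted p = 0.0805), and then Ifit2 (-0.68), Ifit3 (-0.47) and Lgals3bp (0.44). The GC-corrected values were 0.31, -0.38, -0.27 and 0.15. In this list as among the 10 effectors, values lay on either side of 0.

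**Figure D5:**
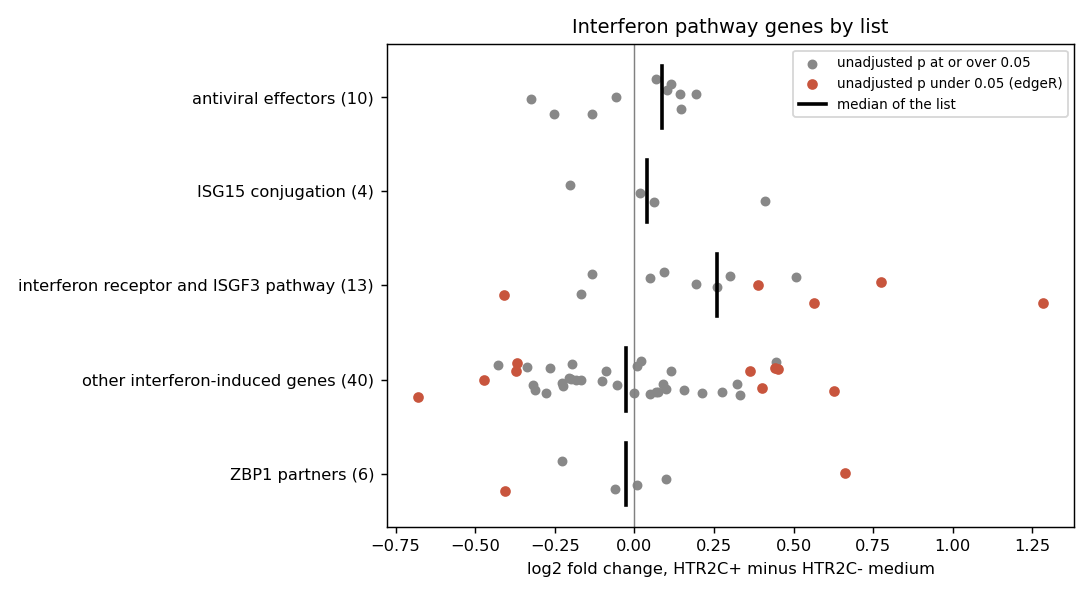
Log2 fold change, HTR2C-positive minus HTR2C-negative medium (horizontal axis), of each tested gene in 5 lists, with the number of genes in brackets. Red points have an unadjusted p under 0.05 by edgeR, black bars are list medians, and the 10 antiviral effectors, with a median of 0.086, hold no red point.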

How the data were processed

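RNA sequencing reads had been counted per gene by the authors in 6 libraries. Tools named in the submitters' processing notes are edgeR, fastp, StringTie and HISAT2 (no versions), with the build GRCm39, and the labels' protocols name Trizol and the VAHTS Universal V6 kit. For strand, multimapping reads and annotation release, the setting is not given in the sources used here. Counts as deposited are whole numbers that the file headers name read counts, and these headers do not mention normalization. Recomputing the deposited FPKM values from count, gene length and library total left relative differences of at most 3.80e-07. Depth was 12843971 to 16031723 counts, and the counting error of a member was at most 3.10% of its value (Mx2 in N1). Reads carry no molecular identifiers.

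Counts were tested in R 4.3.3 with edgeR 4.0.16 (filterByExpr, TMM, robust quasi-likelihood F test, no covariates, Benjamini-Hochberg over 10177 genes, threshold 0.05). SE and intervals come from that fit. Log2 CPM used a prior count of 0.5. GC content came from the longest GENCODE M21 transcript (99.9% of tested genes, 99.85%), and its trend with that of length was fitted per library with splines of 5 degrees of freedom each and used as offsets. The test was checked on counts simulated from these libraries with 200 of 10177 genes changed in 3 runs: 13.3% of genes changed 1.5-fold, 46% changed 2-fold, 78.7% changed 3-fold and 82% changed 4-fold were found, and 0.1% of unchanged genes. All 10 genes are described, genes of the receptor, ISGF3, ISG15 and ZBP1 lists may be named (1 is not reported here), and of the other interferon-induced genes the 4 with the smallest p. The members and lists were chosen with earlier results of these data known. Alternatives were RLE factors, total counts, other filters, limma-voom (limma 3.58.1), DESeq2 1.42.0, the replicate block, the GC and length offsets, and left-out libraries.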

Additional observations from a re-analysis of the deposited data

How the results depend on the processing

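Over 16 alternatives the 10 genes gave 160 log2 fold changes, of which 7 changed sign and 1 passed the adjusted threshold (Ifi44, -0.39, without N2 and P1 together, an alternative chosen after seeing the data). With the GC and length trend removed Bst2 was -0.17, and with the replicate block in addition -0.17. Herc6, which is not among the 10, was 0.12 in each of these fits. With total counts alone Isg15 was 0.083 and Isg20 0.0043. Leaving out 1 library at a time gave Isg15 -0.15 to 0.026 and Isg20 -0.27 to 0.027. The median of the 10 was 0.23 with total counts alone, 0.0027 with the GC and length trend removed, 0.0021 with the replicate block in addition, and 0.031 to 0.14 when 1 library was left out. The count of genes past the threshold, 0 as reported, was 422 without a count filter, 394 with DESeq2, 1107 without N2 and P1, and 0 to 206 with 1 library left out (206 without N2, 186 without P1). The cause was not tested. The replicate block gave 0 calls and a median of 0.087, with 1175 instead of 1690 genes at an unadjusted p under 0.05. Same-numbered libraries deviated from their group means with correlations of -0.13, -0.20 and 0.044, and 1 of 6 libraries correlated best with its own number. With 3 libraries a group, such correlations cannot decide whether the numbers pair libraries. The labels do not say that they do, so the numbers were not taken as pairs. With 3 libraries a group, simulated 2-fold changes were found for 46% of genes and 1.5-fold changes for 13.3%. For tested genes in general, most differences of these sizes would thus be missed. The changed genes were drawn from all tested genes, whose median SE was 0.25. The SE of the 10 genes was 0.14 (Zbp1) to 0.18 (Cmpk2), so these shares do not apply directly to them.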

Other observations

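ZBP1 acts with partners of the cell death pathway, of which 6 genes were listed. By edgeR 0 of 6 passed the adjusted threshold, DESeq2 called 0, and without adjustment 1 had a p under 0.05 and was higher (16.7%) and 1 was lower (16.7%), where 7.9% and 8.71% of all tested genes were. Adar, the RNA-editing enzyme gene that limits ZBP1 activation, had 20.6 ± 5.45 CPM in the HTR2C-negative and 32.6 ± 1.54 CPM in the HTR2C-positive medium libraries (SD, n = 3 each), without overlap. Its log2 fold change was 0.66 (SE 0.20, edgeR adjusted p = 0.149), or 0.44 when GC-corrected. Mlkl, which carries out necroptosis, was at 301 ± 33.6 and 228 ± 26.4 CPM without overlap, with a log2 fold change of -0.41 (SE 0.16, edgeR adjusted p = 0.218) and -0.27 when GC-corrected. The caspase gene Casp8 was at 200.1 ± 13.3 and 171 ± 6.88 CPM, also without overlap. Of all tested genes, 10.9% were higher and 11.5% lower without overlap. With total counts alone the groups of Mlkl and Casp8 overlapped. Ripk1, Ripk3 and Fadd had overlapping groups.

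Markers of other cell types were measured in the same libraries. Of 8 alveolar macrophage markers 2 were at 0 in all libraries, and their summed level was 122 to 126 CPM in N1 to N3 and 116 to 137 CPM in P1 to P3. Nearly all of that sum was Marco and Chil3. Siglecf was at 0 to 0.970 CPM, and no other marker of this list exceeded 1.54 CPM (Car4 in P1). Of 8 neutrophil markers Ly6g and Cxcr2 were at 0 in all libraries, and the sum was 674 to 858 and 834 to 1072 CPM, nearly all of it S100a8 and S100a9. S100a9 was at 88.9 to 95.8 CPM in N1 to N3 and 104 to 134 CPM in P1 to P3. Its groups did not overlap (edgeR adjusted p = 0.248), and those of S100a8 did. Fibroblast markers, 0 of 4 at 0 in all libraries, summed to 51.2 to 61.1 and 51.5 to 63.8 CPM, with Dcn at 32.1 to 34.0 CPM in N1 to N3 and 27.5 to 29.3 CPM in P1 to P3, without overlap. Of all tested genes, 10.9% were higher and 11.5% lower without overlap. With total counts alone the groups of S100a9 and Dcn overlapped. Markers of conventional dendritic cells summed to at most 2.29 CPM and of B cells to at most 2.71 CPM. T cell markers summed to at most 0.399 CPM. The part of these cells in the results was not tested.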
